A study of Mus musculus with 2 samples.

Results

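Of the 40879 gene symbols counted in mouse intestine, 71 carry the names of the Golgi sugar transferases that build and cap mucin-type O-glycans. They were taken by symbol alone, as the numbered members of the Galnt, Gcnt, B3gnt, B3galt, B4galt, B4galnt, Fut, St3gal, St6gal and St6galnac families together with C1galt1 and its chaperone C1galt1c1. The material was intestine of ERAP1 wild type (WT) mice and of mice labelled hetero type (ERAP1+/-), described as carrying 1 disrupted copy of Erap1, on a C57BL/6 background. The disrupted allele was made with a Cre-expressing strain whose promoter is not given in the sources used here, from an embryonic stem cell clone with loxP sites around exons of Erap1. Per the methods, the mice were 8 weeks old at the start, are called germ-free and were kept in a specific pathogen-free facility, and neither the labels nor the methods name a treatment for the sequenced RNA. RNA of 3 mice was combined per genotype, so that each genotype is 1 library of 3' end reads and no difference below has a replicate check. The stretch of intestine is not given by the labels, and the paper's abstract calls the sequenced tissue colonic. Its discussion places the genotype comparison at steady state.

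Mucin-type O-glycosylation begins when a Galnt enzyme attaches N-acetylgalactosamine to serine or threonine. C1galt1 then adds galactose to give core 1, B3gnt6 can add N-acetylglucosamine in its place to give core 3, and Gcnt enzymes branch these to core 2 and core 4. B3gnt, B3galt and B4galt enzymes lengthen the chains, and fucose, sialic acid or a terminal N-acetylgalactosamine closes them. In the colon these chains make up much of the mass of the secreted gel-forming mucin Muc2 and of membrane mucins such as Muc3 and Muc13. The symbol families reach beyond mucins: Fut8 and St6gal1 act on N-glycans, St3gal5, B4galnt1 and B3galt4 on gangliosides, and B4galt7 and B3galt6 on the linker of glycosaminoglycans.

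Of the 3 members that differed most at sufficient level, RefSeq promoter sequences on GRCm38.p6 were at hand for Gcnt1 and St6gal1, and each gene has 3 annotated starts. The 250 bases before the most upstream start of each are shown because these genes head the lower and the higher members. For Gcnt1 the window is chr19:17372845-17373094, minus strand, and for St6gal1 it is chr16:23224490-23224739, plus strand. Capitals mark the letters TATAAA or their reverse complement, the only motif found in these windows. Searched on both strands were the TATA box letters TATAAA, the GC box letters GGGCGG, and TTTATNG, which caudal-type (CDX) factors of intestinal epithelium bind.
Gcnt1: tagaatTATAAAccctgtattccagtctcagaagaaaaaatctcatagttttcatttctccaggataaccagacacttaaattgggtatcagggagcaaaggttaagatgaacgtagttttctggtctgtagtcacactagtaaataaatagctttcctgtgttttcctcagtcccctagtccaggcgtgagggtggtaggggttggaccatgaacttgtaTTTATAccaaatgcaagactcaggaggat
St6gal1: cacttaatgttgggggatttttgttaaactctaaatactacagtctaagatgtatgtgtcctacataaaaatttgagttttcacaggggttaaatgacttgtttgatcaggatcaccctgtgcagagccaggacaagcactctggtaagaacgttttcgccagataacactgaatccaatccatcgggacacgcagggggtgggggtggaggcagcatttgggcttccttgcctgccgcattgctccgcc
The matches in Gcnt1 begin at -244 and, on the reverse strand, at -29 from the start. TATAAA lay in 1 of the 71 windows found for 51 members (1.41%) and in 12.4% of all 32851 promoter windows of that length. GGGCGG lay in 49.3% of the members' windows and 32.7% of all windows, and TTTATNG in 4.23% and 9.81%. The reads come from the other end of the transcript, and these libraries do not show which start was used.

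The WT library held 8114826 reads and the ERAP1+/- library 8907515. Levels are CPM, in which reads of both libraries are put on 1 scale with the TMM factors of edgeR, which centre the log ratios of most genes near 0. In 3' end libraries a transcript gives reads from its end only, so CPM was not divided by length when members were ranked. The targeted gene Erap1 had 229 reads in WT and 2 in the library labelled ERAP1+/-, which was 137-fold lower (95% interval 37.5 to 1139). A value this low goes against a label that leaves 1 copy intact, and every ERAP1+/- value is that of the library so labelled. The loxP sites flank internal exons, so 3' end reads do not measure the deletion itself. The libraries also stood apart in other tissues and in sex-linked genes. Summed over lists of 14 genes each, epidermis markers had 3521 CPM in WT and 40.1 in ERAP1+/-, and skeletal muscle markers had 1223 and 22.3 CPM. In ERAP1+/-, Ivl, Dsg1a, Dsc1 and Trp63 of the epidermis list and Atp2a1 of the muscle list had no read. Xist had 1635 and 6451 reads, and the Y-linked Ddx3y had 319 and 29. With 1 library each, genotype, sex of the pooled mice and tissue taken cannot be told apart, nor can fewer cells of a type from less RNA per cell.

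Higher and lower describe the library labelled ERAP1+/- against WT on the log2(CPM + 1) scale, and a gene was called where it differed past a fold and reached 4 on that scale (15 CPM) in 1 or both libraries. At that level stood 42 of the 71 members, and 3 of them were past 2-fold, with St6gal1 and B4galnt1 higher and Gcnt1 lower. This is 7.14% of the 42, and among the 8013 symbols at that level 5.34% were past 2-fold, 1.39% higher and 3.96% lower. Past 1.5-fold were 15 members, or 35.7%, beside 15.6% of all symbols. Of these 15, 10 were higher (23.8% of the 42, beside 5.54% of all) and 5 were lower (11.9%, beside 10% of all). The exact 95% interval of the read ratio, which covers counting error only, lay above 1 for 19 members and below 1 for 8. These 27 are 64.3% of the 42, near the 57.9% of all symbols. By direction the balance differed: of all 8013 symbols, 2046 had intervals above 1 and 2595 below. The log2 difference was above 0 for 29 of the 42 members (69.0%, beside 47.3% of all symbols), with a median of 0.16 beside -0.03. The contrast was weaker over the 62 members with at least 10 reads. Of these, 36 were above 0, beside 8116 of 16142 such symbols, with a median of 0.12 beside 0.002. Of the 42, 7 reached the level in 1 library alone, and 4 of these (B4galnt1, St6galnac2, Galnt15 and Galnt17) were past 1.5-fold, so that their calls depend on the library where they are high.

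**Figure D1:**
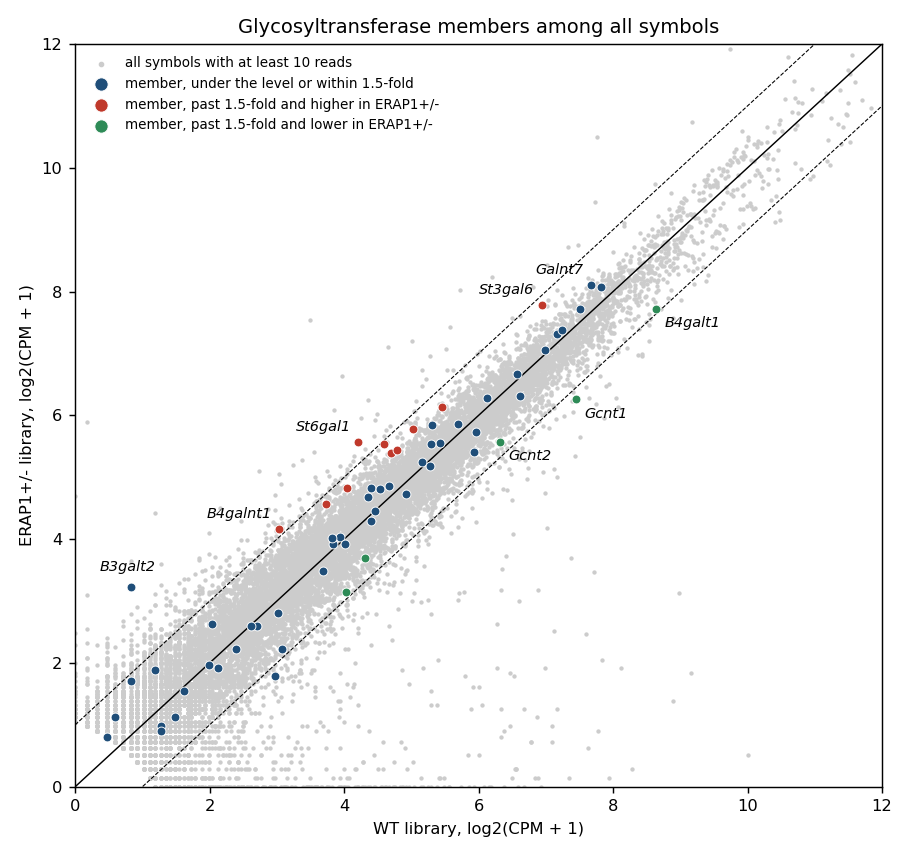
Level of each of 62 members with at least 10 reads (coloured points) and of all other such symbols (grey) in the WT library (x axis) and the ERAP1+/- library (y axis), both as log2(CPM + 1) and drawn from 0 to 12. The solid line marks equal levels and the dashed lines 2-fold, and most members lie inside them, with Gcnt1 and the weakly expressed B4galt2 below and St6gal1, B4galnt1 and the weakly expressed B3galt2 above.

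The most abundant member in WT was B4galt1 and in ERAP1+/- Galnt7. In WT the order by CPM was B4galt1, B4galnt2, Galnt7, St6galnac6 and Gcnt1. In ERAP1+/- it was Galnt7, B4galnt2, St3gal6, B4galt1 and St6galnac6, and Gcnt1 stood at rank 12. B4galt1 and St6galnac6 had nearly the same level in ERAP1+/-, with 1944 and 1940 reads. Summed over all members, the level was 2938 CPM in WT and 3072 in ERAP1+/- (ratio 1.05), so that the sum hardly differed while single members did.

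**Figure D2:**
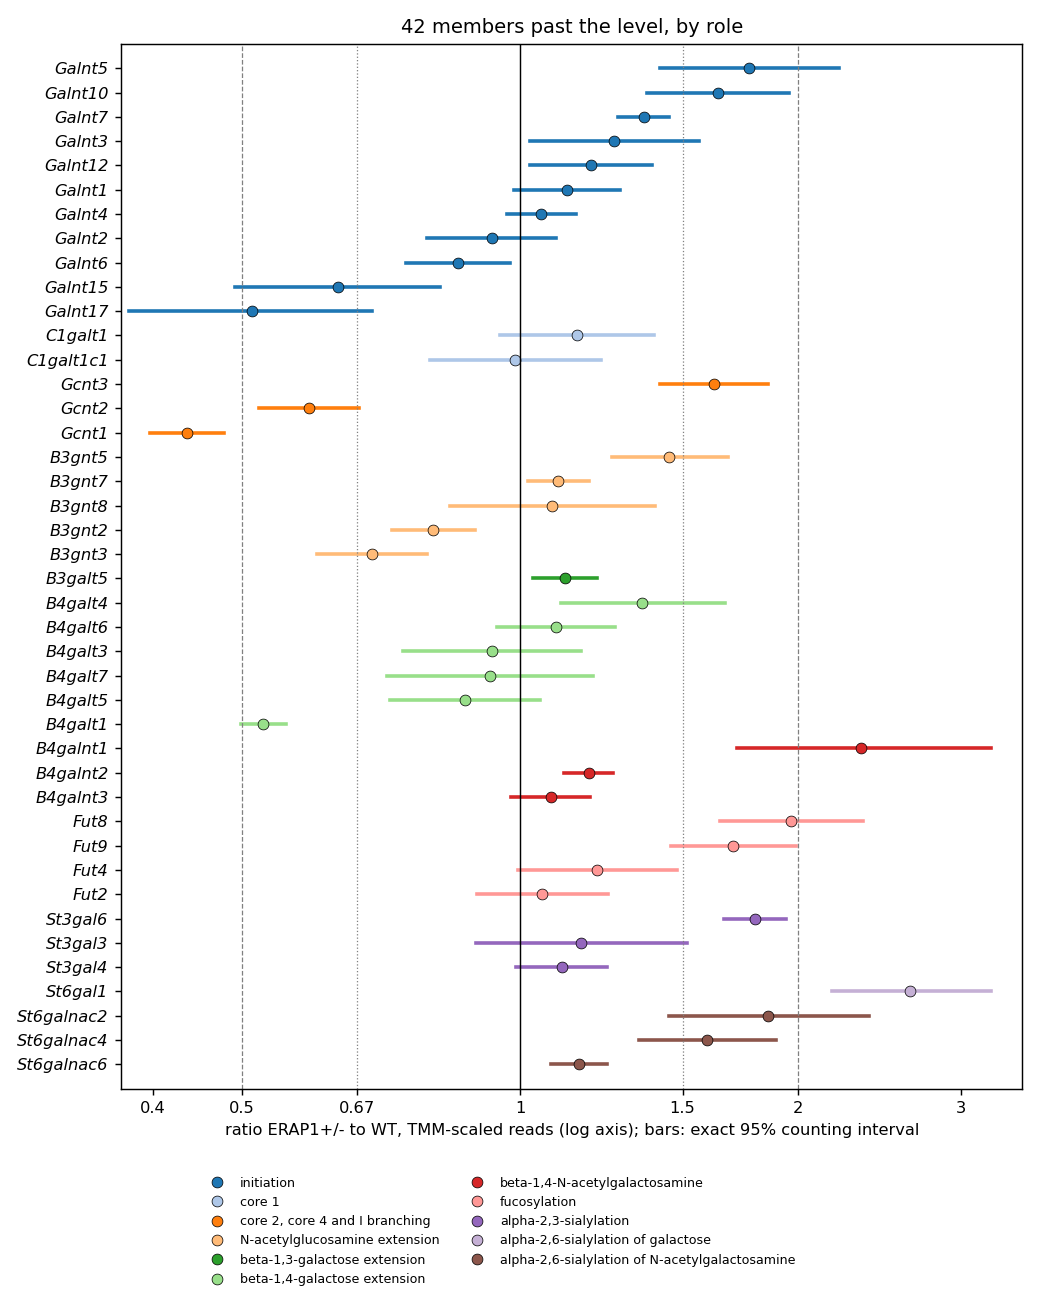
Ratio of ERAP1+/- to WT in TMM-scaled reads (x axis, log scale) for the 42 members past the level, grouped and coloured by role, with exact 95% intervals of counting error as bars. Dotted lines mark 1.5-fold and dashed lines 2-fold, and the points of the sialyltransferases and fucosyltransferases shown lie above 1, some with intervals that hold 1, while Gcnt1, Gcnt2 and B4galt1 lie below.

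The Galnt enzymes, which start the chains, were split. Of 17 Galnt symbols 11 were at the level, 7 with a log2 difference above 0 and 4 below. Galnt7, which prefers peptides that already carry a sugar, was the most abundant, with 1575 and 2567 reads in WT and ERAP1+/-, a ratio of 1.36 (95% interval 1.28 to 1.45). Galnt10, another follow-up enzyme, had 194 and 380 reads and a ratio of 1.64 (95% interval 1.37 to 1.96). Galnt5 had 120 and 254 reads and was higher by the largest ratio of the Galnt enzymes at the level, 1.77 (95% interval 1.42 to 2.22). Both Galnt5 and Galnt10 were past 1.5-fold, and Galnt7 was not. In the other direction, Galnt17, whose human counterpart lies in the Williams-Beuren region, had 119 and 73 reads and was 1.95-fold lower (95% interval 1.45 to 2.65). Galnt15 had 146 and 111 reads and was 1.57-fold lower (95% interval 1.22 to 2.03). These were the 2 Galnt symbols called lower, and both reached the level in WT alone. Calls past 1.5-fold in either direction were 36.4% of the 11, beside 15.6% of all symbols. The other 6 were within 1.5-fold. Galnt12 had 297 and 424 reads and Galnt3, which glycosylates the hormone Fgf23, 152 and 230 reads. Their intervals lay just above 1, from 1.03 and 1.03. For the broadly expressed Galnt1 (394 and 530 reads) and Galnt2 (295 and 329 reads), and for Galnt4 (974 and 1230 reads), the interval held 1. Galnt6 had 474 and 486 reads, with an interval below 1 (0.753 to 0.974), a direction that turned with the epithelium genes as the scale. Galnt2 and Galnt4 share exons on their strand with Gm20388 and Poc1b in GENCODE M21, so their counts are uncertain.

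No enzyme of core formation was called past 1.5-fold, beside 15.6% of all symbols. The enzymes that branch the cores differed in opposite directions. C1galt1, the core 1 synthase, had 190 and 262 reads, and C1galt1c1, the chaperone (also called Cosmc) without which it is inactive, 164 and 194 reads. Both intervals held 1, at 0.952 to 1.40 and 0.798 to 1.22, so that differences within these bounds were not detectable at this depth. B3gnt6, the core 3 synthase, had 3 and 7 reads, under the level in both libraries. Coverage of its 3' end by the annotation used for counting was not checked, so these values limit the reads counted and not its expression. Gcnt1 (chromosome 19, 17326141 to 17372844 on GRCm38), which makes core 2 in many tissues and in leukocytes, had 1345 and 702 reads, or 173 CPM in WT and 75.5 CPM in ERAP1+/-, and was 2.29-fold lower (95% interval 2.09 to 2.52). It is the single member called lower past 2-fold, and came within 2-fold when 14 epithelium genes set the scale (log2 difference -0.88). Of the 51 members with a promoter window, Gcnt1 alone held TATAAA, before 1 of its 3 starts. A link between these letters and its level was not tested. Gcnt2, which makes the branched I antigen, had 611 and 432 reads and was 1.69-fold lower (95% interval 1.49 to 1.92). Gcnt3 (chromosome 9, 70031496 to 70038088), the mucin-type branching enzyme of core 2 and core 4, had 334 and 648 reads and a ratio of 1.62 (95% interval 1.42 to 1.85). Gcnt3 and Gcnt1 thus came close in ERAP1+/- from well apart in WT. Within a library, the number of Gcnt3 reads per Gcnt1 read was 0.248 in WT and 0.923 in ERAP1+/-, a ratio of 3.72 (exact 95% interval 3.16 to 4.38) that no scaling of the libraries can change.

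Among the enzymes that lengthen chains, B4galt1 alone was called past 1.5-fold. B4galt1 (chromosome 4, 40804602 to 40854005), which adds galactose to N-acetylglucosamine and with alpha-lactalbumin makes lactose, had 3079 and 1944 reads, or 396 CPM in WT and 209 CPM in ERAP1+/-. It was 1.90-fold lower (95% interval 1.79 to 2.01), just short of the 2-fold threshold on the log2 scale (-0.92). The other B4galt members at the level were not called. Past 1.5-fold was thus 16.7% of the 6 at the level, near the 15.6% of all symbols. B4galt4 had 157 and 255 reads and a ratio of 1.36 (95% interval 1.11 to 1.67). The intervals held 1 for B4galt6 (327 and 428 reads) and B4galt5 (227 and 237 reads), which make lactosylceramide, and for B4galt3 (156 and 174 reads) and B4galt7 (118 and 131 reads). Per B4galt1 read, B4galt4 had 0.0510 reads in WT and 0.131 in ERAP1+/-, a ratio of 2.57 (exact 95% interval 2.08 to 3.18).

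None of the 5 B3gnt members at the level was called past 1.5-fold, beside 15.6% of all symbols. B3gnt3, which extends core 1, had 469 and 388 reads and was 1.45-fold lower (95% interval 1.26 to 1.66), and B3gnt5, which starts lacto-series glycolipids, had 301 and 523 reads and a ratio of 1.45 (95% interval 1.26 to 1.68). On the log2 scale these 2 fell just short of the threshold, at -0.52 and 0.53. B3gnt7, an enzyme of keratan sulfate chains, had 1172 and 1544 reads and a ratio of 1.10 (95% interval 1.02 to 1.19). B3gnt2, the main enzyme of poly-N-acetyllactosamine, had 754 and 727 reads and was 1.24-fold lower (95% interval 1.12 to 1.38), a difference that vanished with the epithelium genes as the scale. Exons of B3gnt2 overlap Gm12057 and Gm28048 on the same strand, and its count is uncertain. B3gnt8 had 111 and 144 reads, with an interval that held 1. B3galt5, which makes type 1 chains, was the single B3galt member at the level. It had 1103 and 1477 reads and a ratio of 1.12 (95% interval 1.03 to 1.21).

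Of the B4galnt enzymes, B4galnt2, which makes the Sda antigen in the intestine, was the second most abundant member in both libraries. It had 1756 and 2494 reads and a ratio of 1.19 (95% interval 1.12 to 1.26). B4galnt3, which makes terminal LacdiNAc, had 729 and 942 reads and an interval that held 1 (0.979 to 1.19). B4galnt1 (chromosome 10, 127165225 to 127172330), the GM2 and GD2 ganglioside synthase, reached the level in ERAP1+/- alone. It had 56 and 157 reads, or 7.21 CPM in WT and 16.9 CPM in ERAP1+/-, and a ratio of 2.34 (95% interval 1.72 to 3.24). With a log2 difference of 1.12 it lay just past the 2-fold threshold.

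Of 4 fucosyltransferases at the level 2 were past 1.5-fold, both higher (5.54% of all symbols were called higher). Over the 7 with at least 10 reads, 4 had a log2 difference above 0 and 3 below, with a median of 0.08. Those below were Fut1 (11 and 9 reads), Fut10 (33 and 34) and Fut11 (92 and 95), all under the level. Fut8, which adds the core fucose of N-glycans, had 179 and 421 reads and a ratio of 1.96 (95% interval 1.65 to 2.35), just short of 2-fold on the log2 scale (0.94). It passed 2-fold with the total count (1.07) and with the epithelium genes as the scale (1.25). Fut9, which makes the Lewis x structure, had 246 and 501 reads and a ratio of 1.70 (95% interval 1.46 to 1.99). The 2 others at the level did not pass a threshold. Fut2, which makes the H antigen on gut mucins, had 271 and 343 reads and a ratio of 1.06 (95% interval 0.899 to 1.24). Fut4, another Lewis x enzyme, had 173 and 251 reads and an interval that held 1 (0.995 to 1.48).

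Of 7 sialyltransferases at the level 4 were past 1.5-fold, all higher in ERAP1+/- (5.54% of all symbols were called higher). Over the 12 with at least 10 reads, 9 had a log2 difference above 0 and 3 below, which were St3gal1 (40 and 47 reads), St3gal5 (55 and 56) and St6galnac3 (23 and 27), all under the level. St6gal1 (chromosome 16, 23224740 to 23360350), which caps N-glycans with alpha-2,6-linked sialic acid, had 136 and 431 reads, or 17.5 CPM in WT and 46.3 CPM in ERAP1+/-. Its ratio of 2.65 (95% interval 2.18 to 3.23) was the largest among members at the level. St3gal6, which caps N-acetyllactosamine, stood at rank 9 in WT and 3 in ERAP1+/-, with 947 and 2035 reads and a ratio of 1.79 (95% interval 1.66 to 1.94). St6galnac2, which sialylates core 1 and its precursor, had 95 and 211 reads and a ratio of 1.86 (95% interval 1.45 to 2.39), and reached the level in ERAP1+/- alone. St6galnac4, which makes disialylated core 1, had 207 and 395 reads and a ratio of 1.59 (95% interval 1.34 to 1.90). These 4 were called past 1.5-fold, and St6galnac4 was the nearest to the threshold, at 0.65 on the log2 scale. The abundant St6galnac6, an enzyme of gangliosides, had 1400 and 1940 reads and a ratio of 1.16 (95% interval 1.08 to 1.24). The intervals of St3gal4 (537 and 713 reads) and St3gal3 (102 and 142 reads) held 1.

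The other 29 members did not reach the level in either library. Of these, 3 had no read in either library, which allows up to 3 reads or 0.386 CPM in WT and 0.322 in ERAP1+/-: B3gnt4, B3galt9 and St6galnac1. St6galnac1 makes sialyl-Tn and is known from goblet cells. Whether the annotation used for counting covered its 3' end was not checked, so its 0 limits the reads counted and not its expression. B3galt9 was not found in GENCODE M21. Another 6 (Galnt9, Galnt13, Galnt14, Gcnt7, Fut7 and St6gal2) had fewer than 10 reads over both libraries. The remaining 20 had at least 10 reads and ran up to 103 reads in WT and 132 in ERAP1+/-, both of St3gal2. St3gal2, which caps core 1 and gangliosides, stood just under the level at 14.2 CPM in ERAP1+/-. B3galt2 was singled out after its values were seen. It had 6 reads in WT and 78 in ERAP1+/-, or 0.772 CPM in WT and 8.38 CPM in ERAP1+/-. Its ratio was 10.9 (95% interval 4.77 to 30.5), with the wide interval that 6 reads give. B4galt2, with 53 and 23 reads, was 2.76-fold lower (95% interval 1.66 to 4.72), and Galnt18, with 58 and 34 reads, was 2.04-fold lower (95% interval 1.31 to 3.22). Exons of B4galt2 overlap Ccdc24 on the same strand. B3galt2 and B4galt2 would be called past 2-fold on the log2(CPM + 1) scale if the level were dropped to 10 reads.

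Shares within a family do not depend on how the libraries are scaled. Gcnt1 held 58.4% of the Gcnt reads in WT (exact 95% interval 56.4 to 60.5) and 39.1% in ERAP1+/- (36.9 to 41.4). Gcnt3 held 14.5% (13.1 to 16.0) and 36.1% (33.9 to 38.4). B4galt1 held 74.8% of the B4galt reads (73.4 to 76.1) and 60.9% (59.2 to 62.6). The leading enzyme of both families thus held a smaller share in ERAP1+/-. In the Galnt family the leading enzyme held a larger one: Galnt7 had 32.4% (31.1 to 33.8) and 38.1% (36.99 to 39.3). St3gal6 held 53.1% of the St3gal reads in WT (50.7 to 55.4) and 65.1% in ERAP1+/- (63.4 to 66.8). By summed level, the Gcnt family was 1.54-fold lower and the B4galt family 1.54-fold lower, while the ratio was 2.66 for the St6gal family, which is nearly all St6gal1, 1.46 for St3gal and 1.38 for Fut. It was 1.25 for St6galnac, 1.18 for B4galnt, 1.16 for Galnt, 1.16 for B3galt and 1.08 for C1galt1 with its chaperone. The B3gnt family hardly differed, at 364 and 360 CPM. These families and pairs were chosen after the values were seen.

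**Figure D3:**
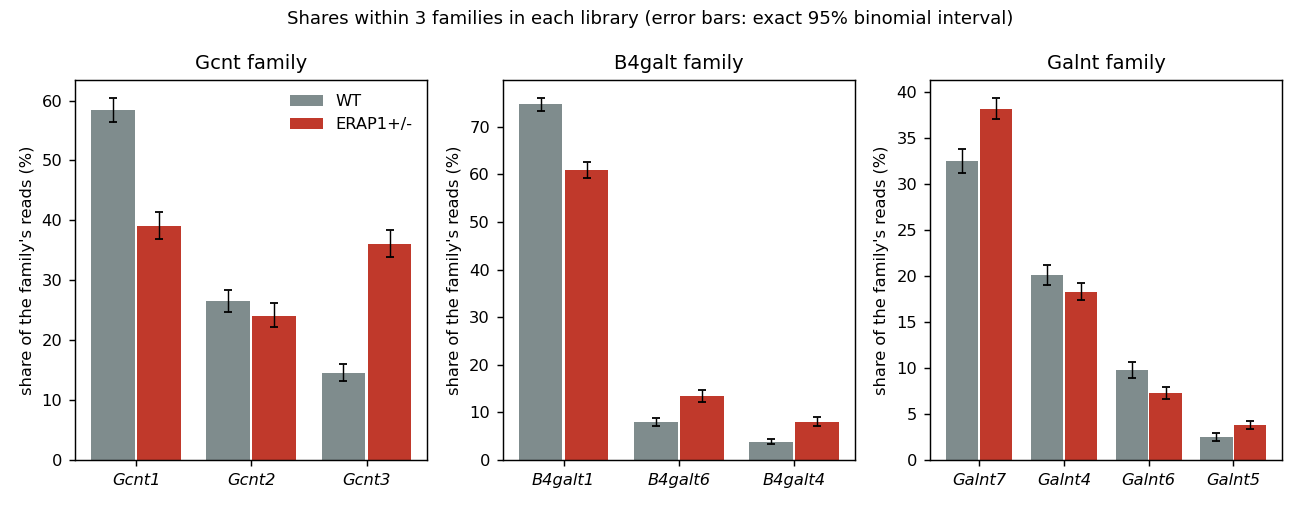
Share of each family's reads (y axis, percent) held by the named genes in WT (grey bars) and ERAP1+/- (red bars), for the Gcnt, B4galt and Galnt families, with exact 95% binomial intervals of counting error as error bars. Gcnt1 and B4galt1 hold smaller shares in ERAP1+/-, Gcnt3 and Galnt7 larger ones, with intervals that do not overlap.

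The substrates and the supply of sugars were read from lists of other pathway genes. Among all symbols at the level, 5.34% were past 2-fold and 15.6% past 1.5-fold, 5.54% higher and 10% lower. Of 5 mucins at the level, 1 was past 2-fold: Muc2, the secreted gel-forming mucin of goblet cells, with 12020 and 32939 reads and a ratio of 2.29 (95% interval 2.24 to 2.34). Muc4, a membrane mucin, had 143 and 344 reads and was past 1.5-fold higher. The 2 mucins most abundant in WT, both of the membrane of surface cells, were past 1.5-fold lower: Muc13 had 28382 and 18494 reads and Muc3 had 21299 and 14991. Muc2 was thus the most abundant mucin in ERAP1+/-, and Muc13 in WT. Of 14 genes of sugar donor synthesis at the level, none was past 2-fold and 1 past 1.5-fold, Gmds of the GDP-fucose pathway (614 and 1109 reads). Among them 12 had a log2 difference above 0, with a median of 0.23 over the 16 measured. The 9 Golgi transporters of sugar and sulfate donors included none past 1.5-fold, with a median of 0.12. Of 5 genes of sulfation and sialic acid acetylation at the level, 3 were past 1.5-fold higher. Chst4, which sulfates N-acetylglucosamine, had 140 and 568 reads and a ratio of 3.39 (95% interval 2.82 to 4.11). Casd1 and Siae, which add acetyl groups to sialic acid and remove them, had 323 and 668 reads and 168 and 343 reads. The other 2, Papss1 (1456 and 1390 reads, 1.25-fold lower) and Papss2 (703 and 804 reads), make the sulfate donor and were within 1.5-fold, with log2 differences of -0.32 and -0.07. Of 4 related transferases outside the named families at the level, Pofut1, which fucosylates Notch, was past 1.5-fold higher (195 and 375 reads).

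Markers of several cell types also differed between the 2 libraries, and their part in the members' differences was not tested. Among all symbols at the level, 1.39% were past 2-fold higher and 3.96% lower. Past 1.5-fold these shares were 5.54% and 10%. Of 13 goblet cell markers, none was at 0, and of 11 at the level all 11 were higher, 5 past 2-fold, with summed levels of 9141 and 15135 CPM in WT and ERAP1+/- and a median log2 difference of 0.90. Of 12 colonocyte markers at the level, none of them at 0, 4 were past 2-fold lower and 11 had a difference below 0, with summed levels of 12691 and 8433 CPM. Goblet and colonocyte lists thus differed in opposite directions. All 10 smooth muscle markers were past 1.5-fold lower, with summed levels of 11566 and 5921 CPM. All 12 epidermis markers and all 12 skeletal muscle markers at the level were past 2-fold lower. For St6gal1, an enzyme also known from B cells, the plasma and B cell list stood beside it with 321 and 1913 CPM in sum. All 4 of its genes at the level were past 2-fold higher, and the B cell markers Ms4a1 (13 and 38 reads) and Cd79a (1 and 5) were under the level. The median of the 14 general epithelial markers was -0.31 on the log2 scale, and near 0 by construction where they set the scale. Of other lists, 3 of 7 macrophage markers at the level were past 1.5-fold higher, no T cell marker reached the level, and no fibroblast or endothelium marker was past 1.5-fold. Of 6 adipocyte markers, the 2 at the level, Cfd (163 and 558 reads) and Fabp4 (435 and 887), were past 1.5-fold higher. Under the level, Adipoq (34 and 124) and Plin1 (5 and 15) had differences above 0, and Retn (61 and 30) and Lep (7 and 4) below 0.

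**Figure D4:**
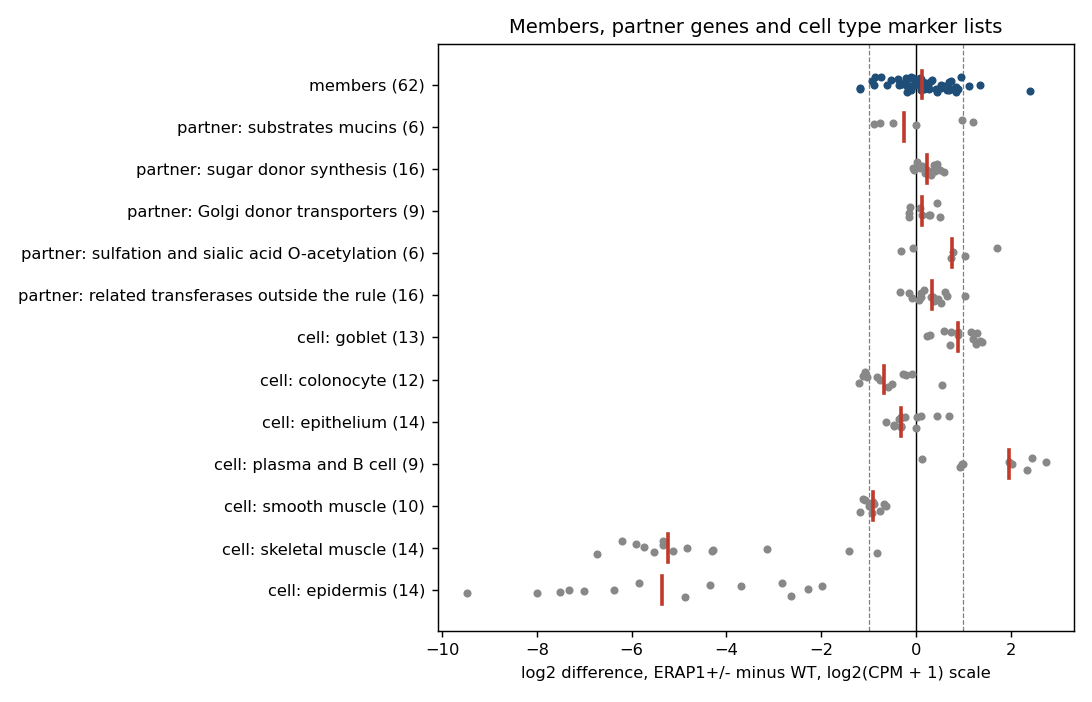
Log2 difference, ERAP1+/- minus WT, on the log2(CPM + 1) scale (x axis) for each gene with at least 10 reads in the members and in 12 lists of partner genes and cell type markers (number of genes in brackets), with the median of each list as a red bar. The members centre at 0.12, between goblet markers at 0.90 and colonocyte markers at -0.68, and the epidermis and skeletal muscle markers lie far to the left.

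Scaling moved all genes alike. With the total count in place of TMM every log2 ratio was 0.13 higher, and with 14 epithelium genes as the reference 0.31 higher. Under the epithelium reference 7 of 42 members were past 2-fold, all higher, beside 6.11% of all 8135 symbols (302 higher and 195 lower). Past 1.5-fold were 16 members, 14 higher and 2 lower, while of all symbols 20.8% were past 1.5-fold higher and 4.55% lower. Gcnt2 and Galnt15 were then within 1.5-fold, at -0.44 and -0.32, and Galnt17 fell under the level. With the total count, 11 were past 1.5-fold higher and 3 lower, beside 9.41% and 7.0% of all symbols, with Galnt15 within 1.5-fold at -0.50 and Galnt17 again under the level. The distance of the members' median from that of all symbols at the level ran from 0.17 to 0.20 over 4 alternatives of scaling and was 0.19 with TMM. All 15 members called past 1.5-fold kept their sign under these scalings and with a pseudocount of 0.1.

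**Figure D5:**
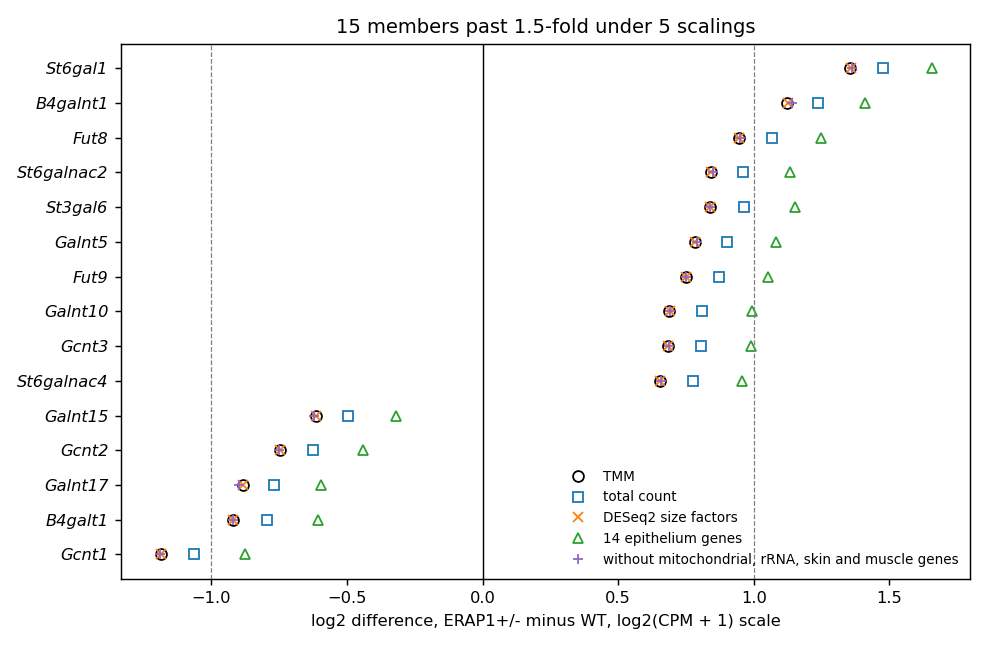
Log2 difference, ERAP1+/- minus WT (x axis, log2(CPM + 1) scale), of the 15 members past 1.5-fold under 5 scalings of the libraries, one symbol per scaling, with dashed lines at 2-fold. The epithelium reference (triangles) moves every gene to the right, past 2-fold for 7 members, and no gene crosses 0.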

How the data were processed

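Intestinal RNA of WT and ERAP1+/- mice was sequenced as 1 library each with a 3' end kit, and the authors deposited raw counts, whole numbers of reads per gene symbol without normalization. The submitters' notes and the methods name Bowtie2 with RSEM on GRCm38, and the methods elsewhere name STAR with HTSeq. Which made the counts is not given in the sources used here. Both totals and all 40879 symbols were kept, and every row carries a symbol. Mitochondrial and ribosomal RNA features took 18.0% of WT and 16.7% of ERAP1+/- reads.

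TMM library sizes came from edgeR 4.0.16 in R 4.3.3, with factors of 0.958 and 1.04. Quasi-likelihood tests and DESeq2 tests need replicates and were not run, so that no p-value is given. DESeq2 1.42.0 gave alternative size factors. For ratios, 95% intervals came from the exact binomial distribution of 1 library's reads given the sum of both (scipy 1.17.1), and for shares from the exact Clopper-Pearson method. PCR copies are not separate molecules, so both cover counting error only. A count of 0 was read as up to 3 reads. The calculation was tested on simulated counts.

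The members and lists were chosen with earlier results of these data known. Every member at a log2(CPM + 1) of 4 is named, those past 1.5-fold and the 5 most abundant with their intervals. Of 71 symbols, 70 were found in GENCODE M21 (GRCm38). Alternatives were other scalings, a pseudocount of 0.1, other levels and a 4-fold threshold. Results without overlapping members were added after seeing the data.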

Additional observations from a re-analysis of the deposited data

How the results depend on the processing

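Past 2-fold were 3 members (2 higher, 1 lower). The count was 7 (7 and 0) with the epithelium reference, where Gcnt1 came within 2-fold and 6.11% of all symbols were past 2-fold. With the total count it was 4 (3 and 1), where Fut8 passed 2-fold and 5.15% of all symbols were past 2-fold. It was 5 (3 and 2) with at least 10 reads over both libraries or with no filter, 1 (0 and 1) with a level of 6, and 0 in either direction at 4-fold. Past 1.5-fold were 15 (10 and 5). With a level of 6 there were 5 (2 and 3), and the lower count was 3 with the total count and 2 with the epithelium reference. Fewer genes stand at the level of 6, and shares of all symbols were not calculated for other levels or at 4-fold. Past 1.5-fold, higher members fell from 10 to 2 at the level of 6 and lower members from 5 to 3. Higher members thus did not outnumber lower ones at that level. The median log2 difference of the 62 measured members was 0.12, beside 0.002 for all symbols with at least 10 reads. It was 0.24 with the total count and 0.43 with the epithelium reference, which shift every gene. DESeq2 size factors, a pseudocount of 0.1 and leaving out mitochondrial, ribosomal, skin and muscle genes changed no count of members past either fold, and the 42 named members moved by less than their interval under each. Leaving out overlapping members, added after seeing the data, kept 15. No paired analysis was possible because the design holds 1 library of WT and 1 of ERAP1+/-, and for that reason variation between mice could not be estimated. Depth limits members of few reads such as B3galt2.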
